A study of Tabanus nipponicus with 3 samples.

Results

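Peptidases that shorten proteins and peptides from their ends, or act on short peptides, were examined in the midguts of 3 individual horse flies. The 53 unigenes were chosen by name from the 8039 in the deposited table: the first title of the best protein hit had to contain carboxypeptidase, aminopeptidase, dipeptidase, dipeptidyl, neprilysin or endothelin-converting. Names with inhibitor or venom were left out, and the word venom alone removed 5 unigenes. Best hits in bacteria were left out as well, so by this rule none of the 53 has one. Unigenes are transcripts put together from the reads alone, and each takes its name here from the protein of another species that it matched best. The names do not all denote exopeptidases. The 17 unigenes of the neprilysin family are named for enzymes that cut inside short peptides, and 2 are named for carboxypeptidase N subunit 2, a leucine-rich carrier protein without catalytic activity in mammals.

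All 3 libraries belonged to 1 group: the midgut of an adult, wild-caught, wild-type female of Tabanus nipponicus, with no treatment and 1 fly per library. The labels do not give age, feeding state or place in the reproductive cycle, which can differ between wild flies. The flies are called fly 1, fly 2 and fly 3 by the replicate number in the labels. With 1 group there was no treated or control arm, so the values describe levels, the ratios between kinds of peptidase within a fly, and the spread between flies.

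Endopeptidases such as trypsin cut a dietary protein into peptides in the gut lumen. Secreted carboxypeptidases then remove residues from the carboxyl end, while aminopeptidases held in the brush border membrane remove residues from the amino end. Dipeptides and tripeptides can enter the cell through peptide transporters and are split inside by cytosolic dipeptidases and aminopeptidases. In blood-feeding flies these enzymes process the blood meal, and membrane aminopeptidases of insect midguts are also known as binding sites of Bacillus thuringiensis toxins.

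Levels are FPKM, fragments scaled to unigene length and depth. The recovered depth was 29308867 to 33797869 reads per fly. The labelled tissue was checked with names of midgut proteins (trypsins, maltases, peritrophins and a chitin synthase): all 21 reached an FPKM of 1 in every fly, and they summed to 11370, 11187 and 8693 FPKM in flies 1, 2 and 3. Names of other tissues were lower in sum and highest in fly 3: 13 muscle names summed to 344, 374 and 767 FPKM and 9 fat body names to 6.75, 24.3 and 97.3 FPKM. The 8 hemocyte names summed to 7.21, 16.9 and 21.0 FPKM and the 7 neuron names to 71.5, 66.6 and 95.9 FPKM. The leading names were a trypsin (TRINITY_DN420_c0_g1_i4) and a maltase (TRINITY_DN5820_c0_g1_i5) for midgut, troponins C (TRINITY_DN12232_c0_g1_i1) and T (TRINITY_DN1863_c0_g1_i13) for muscle, apolipophorins (TRINITY_DN9332_c0_g1_i15) and a vitellogenin (TRINITY_DN4151_c0_g1_i6) for fat body. For hemocytes they were phenoloxidases (TRINITY_DN12757_c1_g1_i12 and TRINITY_DN11577_c0_g1_i8), and for neurons synaptobrevin (TRINITY_DN1015_c0_g1_i18) and an ELAV-like protein (TRINITY_DN14405_c0_g1_i18). Bacterial best hits took 22.7%, 33.1% and 7.34% of the FPKM of flies 1, 2 and 3, which left unequal room for all other unigenes. On the log2(FPKM + 1) scale, fly 3 exceeded the mean of the other flies by 0.43 for the median unigene, and by 0.02 after median-of-ratios scaling, which divides the flies by 0.976, 0.838 and 1.27.

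The 53 unigenes held a small share of the transcriptome and spanned a wide range of levels. They summed to 3855, 4831 and 2027 FPKM in flies 1, 2 and 3, or 0.613%, 0.760% and 0.316% of all FPKM, a mean of 0.563% ± 0.226 (SD, n = 3). Fly 3 was the lowest. Carboxypeptidase B-like (TRINITY_DN818_c0_g1_i9) alone made up 53.5% of the mean summed level, and mean levels ran from 0.365 to 1910 FPKM. An FPKM of at least 1 in every fly was reached by 24 of the 53, while 81.6% of all unigenes reached it. By fly, 27, 36 and 49 of the 53 reached an FPKM of 1 in flies 1, 2 and 3, while 6948, 6898 and 7637 of all 8039 unigenes did. The highest value fell in fly 3 for 32 of the 53, against 66.5% of all unigenes. The median of the members' mean levels was 3.15 FPKM, against 8.69 FPKM over all unigenes.

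**Figure D1:**
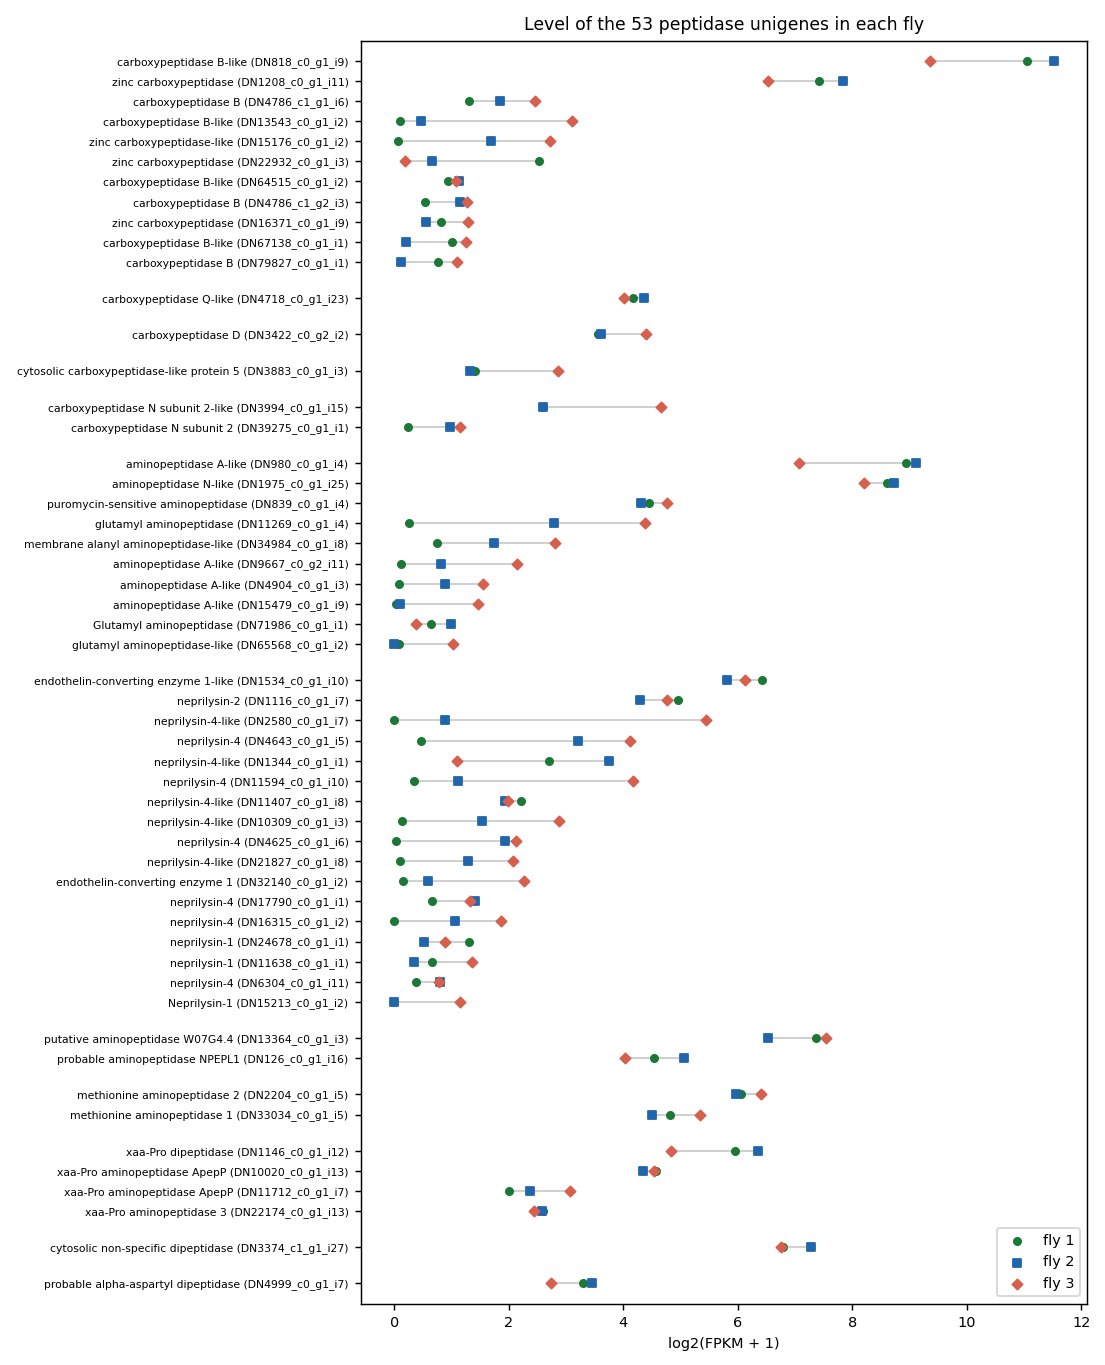
Level of each of the 53 unigenes as log2(FPKM + 1) on the x axis, with 1 row per unigene, grouped by enzyme family and sorted by mean level within a family. Circles are fly 1, squares fly 2 and diamonds fly 3, joined by a grey line. The diamond lies to the left for the most abundant carboxypeptidase B-like, zinc carboxypeptidase and aminopeptidase A-like unigenes, at 657, 91.9 and 134 FPKM. In most rows of low neprilysin names the diamond lies to the right, and 66.5% of all unigenes were highest in fly 3.

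Digestive-type carboxypeptidases, the secreted metallocarboxypeptidases of the A and B kind, were the most abundant family. Carboxypeptidase B removes the basic residues lysine and arginine, which trypsin leaves at the carboxyl end of its products. Carboxypeptidase B-like (TRINITY_DN818_c0_g1_i9) stood at 2117, 2957 and 657 FPKM in flies 1, 2 and 3. It ranked 61 among all unigenes by mean level and was 4.49-fold higher in FPKM + 1 in fly 2 than in fly 3. Its unigene of 4599 bases aligned over 97.8% of a hover fly protein of 414 residues with 38.9% identity, and the aligned stretch covered 40.4% of the unigene.

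A zinc carboxypeptidase (TRINITY_DN1208_c0_g1_i11) was the only other abundant member of this family, at 171, 227 and 91.9 FPKM, with the same order of flies. These 2 unigenes held 99.3% of the family's mean summed level. The family summed to 2298, 3193 and 773 FPKM in flies 1, 2 and 3, and 3 of its 11 unigenes reached an FPKM of 1 in every fly.

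The other 9 digestive-type carboxypeptidases had mean levels below 5 FPKM. Carboxypeptidase B (TRINITY_DN4786_c1_g1_i6) was at 1.48, 2.60 and 4.52 FPKM, and a neighbouring assembly (TRINITY_DN4786_c1_g2_i3) aligned to nearly the same residues of the same mosquito protein, from 60 to 457 against 51 to 456. Carboxypeptidase B-like (TRINITY_DN13543_c0_g1_i2) was at 0.0689, 0.391 and 7.58 FPKM, from 4, 24 and 404 reads. Zinc carboxypeptidase-like (TRINITY_DN15176_c0_g1_i2) was at 0.0437, 2.23 and 5.62 FPKM. These 4 low unigenes were highest in fly 3 as deposited, but after median-of-ratios scaling the second assembly (TRINITY_DN4786_c1_g2_i3) was highest in fly 2. A further zinc carboxypeptidase (TRINITY_DN22932_c0_g1_i3) ran the other way, at 4.79, 0.580 and 0.134 FPKM from 234, 30 and 6 reads. The order of flies varied among the low members of the family. Of its 11 unigenes 7 were highest in fly 3, all of them low, against 1928 of all 2783 unigenes with a mean below 5 FPKM.

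Carboxypeptidases with other roles were present at lower levels. Carboxypeptidase D (TRINITY_DN3422_c0_g2_i2), which trims basic residues from peptides in the secretory pathway and is known in Drosophila as silver, was at 10.8, 11.2 and 20.2 FPKM. Carboxypeptidase Q-like (TRINITY_DN4718_c0_g1_i23), named for a plasma and lysosomal dipeptidase-type enzyme, was at 17.2 ± 2.18 FPKM (SD, n = 3), and its flies differed 1.27-fold in FPKM + 1 as deposited and 1.87-fold after median-of-ratios scaling. Cytosolic carboxypeptidase-like protein 5 (TRINITY_DN3883_c0_g1_i3), named for enzymes that remove glutamates from tubulin, was at 1.67, 1.51 and 6.26 FPKM. Of the 2 carboxypeptidase N subunit 2 names, TRINITY_DN39275_c0_g1_i1 was at 0.186, 0.966 and 1.21 FPKM, from 4, 22 and 24 reads. The other, TRINITY_DN3994_c0_g1_i15, was at 5.04, 5.04 and 24.3 FPKM and thus higher in fly 3. It aligned over 23.7% of its hit with 28.9% identity.

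Aminopeptidases of the M1 family, zinc enzymes of which several sit in the gut brush border, were the second most abundant family. Aminopeptidase A-like (TRINITY_DN980_c0_g1_i4), named for an enzyme that removes acidic residues, was at 492, 554 and 134 FPKM in flies 1, 2 and 3. Aminopeptidase N-like (TRINITY_DN1975_c0_g1_i25), named for the broad neutral aminopeptidase of the brush border, was at 391, 424 and 294 FPKM. Both were highest in fly 2 and lowest in fly 3, but their spread differed: the highest and lowest fly stood 4.11-fold apart in FPKM + 1 for the first and 1.44-fold for the second. Together they held 95.3% of the family's mean summed level.

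The other membrane-bound M1 names were low and mostly highest in fly 3, as were 66.5% of all unigenes. Glutamyl aminopeptidase (TRINITY_DN11269_c0_g1_i4), a synonym of aminopeptidase A, was at 0.201, 5.88 and 19.9 FPKM, from 18, 558 and 1640 reads. Membrane alanyl aminopeptidase-like (TRINITY_DN34984_c0_g1_i8), a synonym of aminopeptidase N, was at 0.689, 2.36 and 6.02 FPKM. Both were lowest in fly 1 and highest in fly 3, while the abundant unigenes of the same enzyme names were lowest in fly 3. The deposited hits show 4 aminopeptidase A-like unigenes with 1 best hit, a protein of 1063 residues of the fly Condylostylus longicornis. The abundant one aligned to residues 177 to 713 with 64.0% identity, and TRINITY_DN9667_c0_g2_i11, TRINITY_DN4904_c0_g1_i3 and TRINITY_DN15479_c0_g1_i9 to residues 560 to 948, 187 to 1023 and 253 to 982 with 28.3%, 33.5% and 34.0%. These stretches overlap one another. The mean levels of the 3 low ones were 1.41, 0.953 and 0.623 FPKM.

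Puromycin-sensitive aminopeptidase (TRINITY_DN839_c0_g1_i4), the cytosolic M1 enzyme that trims peptides released by the proteasome, was at 20.8, 18.9 and 26.1 FPKM. Its flies differed 1.36-fold in FPKM + 1 as deposited and 1.09-fold after median-of-ratios scaling, which also made fly 3 the lowest.

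The neprilysin family, M13 zinc endopeptidases that in Drosophila degrade signalling peptides such as tachykinins, was the largest family by number with 17 unigenes. Its median SD of log2(FPKM + 1) between flies was 0.93, against 0.38 over all unigenes. It summed to 128, 110 and 200 FPKM in flies 1, 2 and 3. The leading member was endothelin-converting enzyme 1-like (TRINITY_DN1534_c0_g1_i10), at 84.9, 55.2 and 69.0 FPKM. Neprilysin-2 (TRINITY_DN1116_c0_g1_i7), with 76.9% identity to a black soldier fly protein over 99.0% of its length, was at 30.0, 18.6 and 26.2 FPKM. Both were highest in fly 1, and their flies differed 1.53-fold and 1.58-fold in FPKM + 1.

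Neprilysin-4 names showed much larger differences. Neprilysin-4-like TRINITY_DN2580_c0_g1_i7 had no read in fly 1, 58 reads in fly 2 and 2532 reads in fly 3, or 0, 0.847 and 42.6 FPKM. Set against a floor of 3 fragments in fly 1, which is 0.0927 FPKM, it was at least 459.6-fold higher in fly 3. Its identity to the bed bug protein was 23.9%, the lowest of the 53.

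Neprilysin-4 TRINITY_DN4643_c0_g1_i5 was at 0.387, 8.29 and 16.4 FPKM. Neprilysin-4 TRINITY_DN11594_c0_g1_i10 was at 0.278, 1.15 and 16.9 FPKM. Both were lowest in fly 1 and highest in fly 3. Another order, lowest in fly 3 and highest in fly 2, was seen for neprilysin-4-like TRINITY_DN1344_c0_g1_i1, at 5.49, 12.5 and 1.13 FPKM, and neprilysin-4-like TRINITY_DN11407_c0_g1_i8 was at 3.15 ± 0.433 FPKM (SD, n = 3).

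The 11 neprilysin-4 names together summed to 10.9, 35.2 and 97.8 FPKM in flies 1, 2 and 3. Their sum moved in the same direction as that of the fat body names, at 6.75, 24.3 and 97.3 FPKM, among which apolipophorins (TRINITY_DN9332_c0_g1_i15), lipid carriers of the hemolymph, stood at 0.619, 13.8 and 64.1 FPKM. Of these 9 names 7 were lowest in fly 1 and highest in fly 3, and a vitellogenin-1-like name (TRINITY_DN32326_c0_g1_i1) was listed at 0 in fly 1. The sums of the muscle names (344, 374 and 767 FPKM) and hemocyte names (7.21, 16.9 and 21.0 FPKM) also rose from fly 1 to fly 3. That of the neuron names was lowest in fly 2. The part of other tissues in the neprilysin values was not tested. In bulk tissue, fewer cells of a type and less RNA per cell cannot be told apart.

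Cytosolic enzymes of peptide turnover had a median SD of log2(FPKM + 1) of 0.47 over all members of that type. It was 0.56 for secreted and 0.81 for membrane-bound ones, a difference that was not tested, and 0.38 over all unigenes. At a mean of at least 5 FPKM it was 0.36 for 8 cytosolic, 0.66 for 3 secreted and 1.24 for 10 membrane-bound unigenes. Over all unigenes at that level it was 0.36. Putative aminopeptidase W07G4.4 (TRINITY_DN13364_c0_g1_i3), an M17 leucine aminopeptidase by its name, was the most abundant cytosolic unigene, at 165, 91.8 and 185 FPKM. Cytosolic non-specific dipeptidase (TRINITY_DN3374_c1_g1_i27), which splits dipeptides after uptake, was at 109, 154 and 107 FPKM. Methionine aminopeptidases, which remove the starting methionine from new proteins, were at 70.5 ± 11.5 FPKM for type 2 (TRINITY_DN2204_c0_g1_i5) and 29.4 ± 9.12 FPKM for type 1 (TRINITY_DN33034_c0_g1_i5) (SD, n = 3). Type 2 also had the highest identity of the 53, 93.0% to a black soldier fly protein.

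Enzymes that cut beside proline did not vary together. Xaa-Pro dipeptidase (TRINITY_DN1146_c0_g1_i12), the prolidase that frees proline from dipeptides, was at 60.7, 81.0 and 27.6 FPKM, and fly 3 was again the lowest. One xaa-Pro aminopeptidase ApepP unigene (TRINITY_DN10020_c0_g1_i13) was at 21.5 ± 1.84 FPKM and another (TRINITY_DN11712_c0_g1_i7) at 4.85 ± 2.25 FPKM (SD, n = 3). Xaa-Pro aminopeptidase 3 (TRINITY_DN22174_c0_g1_i13), the mitochondrial form, was at 5.06, 5.01 and 4.42 FPKM, which differed 1.12-fold in FPKM + 1 as deposited and 1.55-fold after median-of-ratios scaling. Outside the proline-specific names, probable aminopeptidase NPEPL1 (TRINITY_DN126_c0_g1_i16), a leucine-type name, was at 22.2, 32.5 and 15.4 FPKM. Probable alpha-aspartyl dipeptidase (TRINITY_DN4999_c0_g1_i7), also not proline-specific by name, was at 8.79, 9.96 and 5.70 FPKM.

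By name, 12 unigenes were of secreted enzymes, 27 of membrane-bound and 10 of cytosolic ones, 1 of a mitochondrial enzyme, and 3 were not placed. The 27 include all 17 unigenes of the neprilysin family, placed by family name alone. The secreted type summed to 2315, 3212 and 789 FPKM in flies 1, 2 and 3, the membrane-bound type to 1023, 1110 and 683 FPKM and the cytosolic type to 498, 487 and 520 FPKM. The cytosolic sum was 502 ± 16.7 FPKM and the secreted sum 2105 ± 1225 FPKM (SD, n = 3). The narrow cytosolic range depended on the scale, since after median-of-ratios scaling that sum was 510, 582 and 411, or 501 ± 85.8 (SD, n = 3). Secreted names exceeded membrane-bound names 2.26-fold, 2.89-fold and 1.15-fold in flies 1, 2 and 3. They exceeded cytosolic names 4.65-fold, 6.59-fold and 1.52-fold. Membrane-bound names exceeded cytosolic ones 2.06-fold, 2.28-fold and 1.31-fold. All 3 comparisons pointed one way in 3 of 3 flies and gave their smallest fold in fly 3, each with an exact two-sided sign-flip permutation p of 0.25 (adjusted over the 3 pairs, 0.25), the smallest that 3 flies allow. The mean log2 ratios were 0.97 ± 0.69, 1.85 ± 1.11 and 0.87 ± 0.42 (SD, n = 3), in the same order.

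**Figure D2:**
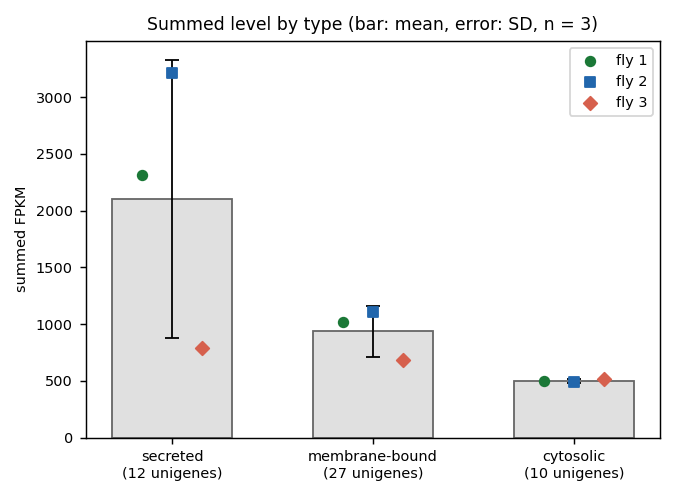
Summed FPKM of the secreted, membrane-bound and cytosolic types on a linear y axis, with the mean as a bar, the SD over 3 flies as the error bar and each fly as a point. As deposited, the cytosolic points lie together at 487 to 520 FPKM, while the secreted points run from 789 to 3212 FPKM.

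The order of the types rested on few unigenes. Carboxypeptidase B-like (TRINITY_DN818_c0_g1_i9) made up 90.7% of the mean secreted level, and the 2 M1 leaders made up 81.3% of the membrane-bound level, while the top 2 cytosolic unigenes made up 53.9%. Without the most abundant unigene of each type, secreted names were lower than membrane-bound ones (mean log2 ratio -1.54) and lower than cytosolic ones (-0.91). Membrane-bound names still exceeded cytosolic ones then (0.63). Of cytosolic unigenes 10 of 10 reached an FPKM of 1 in every fly, against 4 of 12 secreted and 7 of 27 membrane-bound ones. The median mean level was 26.4 FPKM for cytosolic unigenes, 2.23 FPKM for secreted and 2.06 FPKM for membrane-bound ones.

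The types also differed in median identity to the best hit, with ranges that overlapped. The median was 71.7% for cytosolic, 52.1% for secreted and 33.1% for membrane-bound names, against 65.5% over all unigenes with a hit. The ranges were 61.7% to 93.0%, 36.3% to 61.9% and 23.9% to 87.8%, in the same order. In the neprilysin family it was 29.2%, and 11 of its 17 best hits came from animals other than flies, such as wasps, bees, ants, bugs and a sea cucumber. No other family among the 53 had such a hit, and the share of such hits over all unigenes was not counted. Identity below 40% was found for 25 of the 53 and for 9.95% of all unigenes with a hit. Low identity did not always mean short matches: the neprilysin unigenes covered a median of 87.6% of their hit. The 2 carboxypeptidase N subunit 2 names, both below 40% identity, covered a median of 21.4%.

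**Figure D3:**
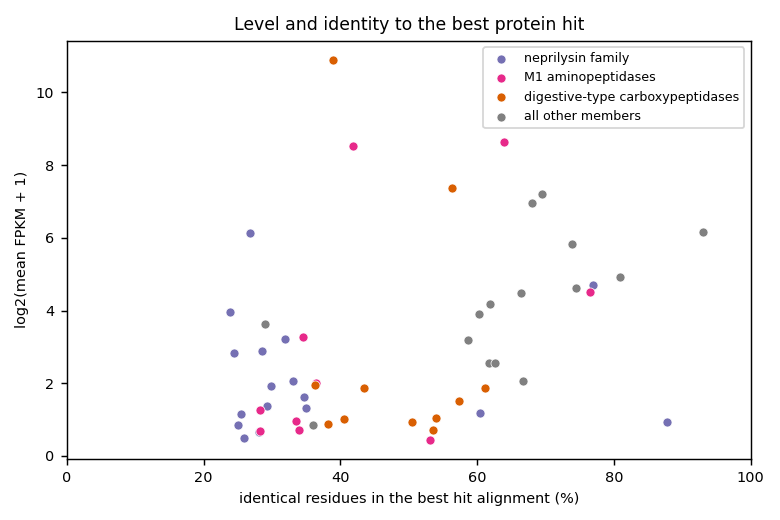
Percent of identical residues in the alignment to the best protein hit on the x axis and log2(mean FPKM + 1) over 3 flies on the y axis, with 1 point per unigene and colours for 3 families. Of the 17 neprilysin points 14 lie below 40% identity and most of them are low, while the topmost point, carboxypeptidase B-like at 1910 FPKM on average, lies at 38.9%.

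The spread between flies was set against that of all unigenes. Of the 23 with a mean of at least 5 FPKM, 8 differed at least 4-fold between the highest and the lowest fly in FPKM + 1, while 9.42% of all 5256 unigenes at that level did. At least 2-fold was reached by 11 of the 23, against 30.3%. Near the threshold the fold went from 4.11 for aminopeptidase A-like (TRINITY_DN980_c0_g1_i4), just inside, to 2.87 for xaa-Pro dipeptidase, the nearest outside. By type, the 8 were 6 of 10 membrane-bound, 1 of 3 secreted and 0 of 8 cytosolic unigenes at that level, with the last one unplaced. The median SD of log2(FPKM + 1) was 0.51 over the 23 and 0.36 over all unigenes at that level. The count was 6 without fly 1, 5 without fly 2 and 0 without fly 3. Since the mean of 5 FPKM was then taken over the remaining 2 flies, unigenes left these counts through the mean as well as through the fold. Without fly 3 this held for TRINITY_DN4643_c0_g1_i5 (0.387 and 8.29 FPKM in flies 1 and 2) and TRINITY_DN11269_c0_g1_i4 (0.201 and 5.88 FPKM), which differed more than 4-fold between those flies. Several of the 8 reached a mean of 5 FPKM through fly 3, so the count describes the unigenes that passed and not all 53.

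The 8 did not share a direction. Of them, 5 were highest in fly 3, namely TRINITY_DN2580_c0_g1_i7, TRINITY_DN4643_c0_g1_i5, TRINITY_DN11594_c0_g1_i10, TRINITY_DN11269_c0_g1_i4 and TRINITY_DN3994_c0_g1_i15. The other 3 were lowest there: carboxypeptidase B-like, aminopeptidase A-like (TRINITY_DN980_c0_g1_i4) and TRINITY_DN1344_c0_g1_i1. Among all unigenes with a mean of at least 5 FPKM, 8.28% were 4-fold variable with their highest value in fly 3 and 0.476% with their lowest value there. After median-of-ratios scaling the split among the 53 was 4 highest and 4 lowest, as xaa-Pro dipeptidase passed 4-fold and TRINITY_DN3994_c0_g1_i15 no longer did.

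The order of flies was mixed among the more abundant unigenes. Among the low ones fly 3 was seldom the lowest, about as seldom as among all unigenes at that level. Of the 23 with a mean of at least 5 FPKM, 10 were lowest in fly 3, against 18.0% of all unigenes at that level, and all 10 were highest in fly 2, an order held by 8.39%. Another 10 of the 23 were highest in fly 3, against 3414 of all 5256 at that level. Of these, 6 were also lowest in fly 1, an order held by 19.3% at that level. After median-of-ratios scaling 15 of the 23 were lowest in fly 3, against 43.8%. Over all 53, 21 were lowest in fly 1, intermediate in fly 2 and highest in fly 3, against 21.6% of all unigenes, and 19 after scaling, against 18.8%. Of the 30 unigenes with a mean below 5 FPKM, 15 had this order, against 26.0%. Fly 3 was the lowest for 3 of the 30, against 332 of all 2783 at that level. Of the 25 with an identity below 40%, 16 were lowest in fly 1 and highest in fly 3, against 26.3% of all unigenes below that identity. At 40% or more it was 5 of 28, against 20.7%. These unigenes share libraries and depth, and 16 of the 53 had no more than 6 reads in at least 1 fly, so their order is a description of 3 libraries. The fat body, muscle and hemocyte names had the same order in sum (6.75, 24.3 and 97.3 FPKM, 344, 374 and 767 FPKM, and 7.21, 16.9 and 21.0 FPKM). Their part in this result was not tested.

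**Figure D4:**
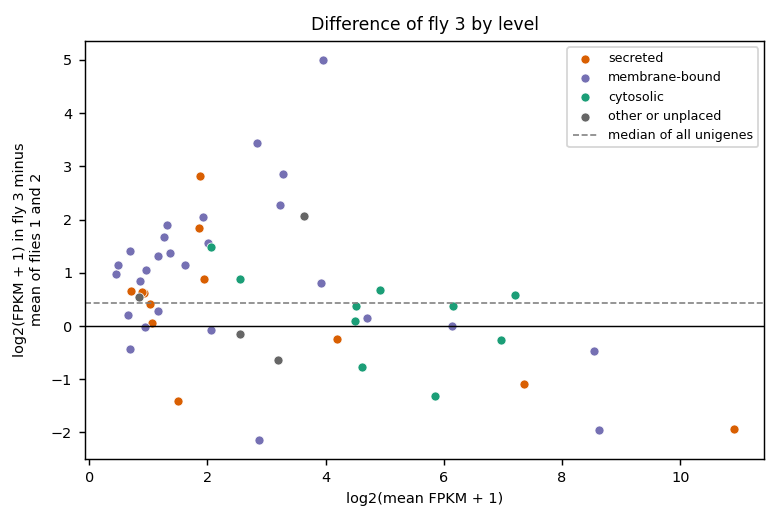
Difference in log2(FPKM + 1) between fly 3 and the mean of flies 1 and 2 on the y axis against log2(mean FPKM + 1) on the x axis, with 1 point per unigene coloured by type. The solid line is no difference and the dashed line the median of all unigenes at 0.43, and the highest point is neprilysin-4-like TRINITY_DN2580_c0_g1_i7, while the most abundant secreted and membrane-bound unigenes lie below both lines.

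Other proteins that handle short peptides also differed between flies. Peptide transporter family 1 (TRINITY_DN2891_c0_g1_i10), a proton-driven importer of dipeptides and tripeptides, was at 312, 534 and 232 FPKM. It was lowest in fly 3 and highest in fly 2, like the most abundant carboxypeptidase and M1 aminopeptidases. It held 99.5% of the mean summed level of the 3 oligopeptide transporter names, and the next (TRINITY_DN32228_c0_g1_i8) was at 0.154, 1.68 and 2.52 FPKM. Of 18 other oligopeptide-handling names, 7 of the 15 with a mean of at least 5 FPKM differed at least 4-fold between flies, against 9.42% of all unigenes at that level. All 7 were angiotensin-converting enzyme names, for enzymes that remove dipeptides, and several reached that mean through fly 3. The 11 such names summed to 45.1, 125 and 332 FPKM in flies 1, 2 and 3. The fat body names summed to 6.75, 24.3 and 97.3 FPKM, and the sums of the muscle and hemocyte names rose in the same order of flies. The part of these tissues in this result was not tested. The leading angiotensin-converting enzyme name (TRINITY_DN6083_c0_g1_i2) was at 0.252, 51.6 and 128 FPKM. Bleomycin hydrolase (TRINITY_DN15043_c0_g1_i7), a cytosolic aminopeptidase by activity, was at 53.2, 40.4 and 80.0 FPKM, and below it prolyl endopeptidase, tripeptidyl-peptidase 2, insulin-degrading enzyme, nardilysin and oligopeptidase A differed less than 2-fold.

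The 5 unigenes set aside for the word venom in their name included venom dipeptidyl peptidase 4 (TRINITY_DN1253_c0_g1_i13), named for a membrane-bound enzyme that removes dipeptides from the amino end. It was at 82.8, 78.5 and 22.9 FPKM. Like the most abundant carboxypeptidase and M1 aminopeptidases it was lowest in fly 3. With all 5 included the share of all FPKM was 0.578%.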

How the data were processed

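The midgut of each fly gave 1 library of total RNA (TRIZOL reagent, KAPA RNA HyperPrep kit), per the labels' protocols. The authors deposited 1 table with FPKM per unigene and fly, and unigene length, per the file headers. The same deposited table gives for each best hit its title, the percent of residues that were identical, alignment positions, a bit score and an e-value, which is a p-value-like expectation. Scores and e-values were not used. For assembler version, aligner, counting tool and protein database the entry is: not given in the sources used here. Fly 3 was matched through its description, as its column is numbered 4. FPKM times length summed to 1e+09 per fly, and division by the smallest such product gave whole reads, within 0.001, for 97.1% to 97.3% of unigenes. Counting errors and floors (3 fragments of 2 reads) cover counting error only.

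Unigenes were placed in families and types by words in their names, with Python 3.11.15, numpy 2.4.6 and pandas 2.3.3; figures used matplotlib 3.10.9. The members and lists were chosen with earlier results of these data known. The carboxypeptidase N subunit 2 names, and false matches in the lists of other proteins, were set aside after the names were read. The text names the 6 unigenes of highest mean per family, the 10 of largest SD of log2(FPKM + 1) at a mean of at least 5 FPKM, every unigene past 4-fold and the top 2 of each other list. A few more are named for a count or a shared hit, after their values were seen. A pseudocount of 1 understates differences of low unigenes. Since FPKM are not counts, count models were not applied. Ratios of summed FPKM were tested with an exact sign-flip permutation test over flies. Reads shared between similar unigenes may have been divided in ways that cannot be seen in the table. Alternatives were another scaling, pseudocount, filters and name rules, and leaving out each fly.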

Additional observations from a re-analysis of the deposited data

How the results depend on the processing

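No paired analysis was possible because there is 1 group and so no pair of groups; the type ratios were taken within each fly. The direction of the ratios of secreted names depended on single unigenes. The mean log2 ratio of secreted to membrane-bound names was 0.97; it was -1.54 without the most abundant unigene of each type and -2.06 at an identity of at least 40%, a limit that removes carboxypeptidase B-like at 38.9%. Secreted to cytosolic, 1.85, became -4.11 with the median member, -0.91 without the most abundant unigenes and -1.45 at that identity. Membrane-bound to cytosolic, 0.87, became -4.54 with the median member. Its mean kept its sign without the most abundant unigenes (0.63), at that identity (0.61) and without the neprilysin family (0.59). At that identity and without the neprilysin family, the exact sign-flip permutation p was 0.5, so the 3 flies did not all point one way. Leaving out 1 fly gave 0.69 to 1.36, 1.41 to 2.47 and 0.72 to 1.11, in the same order, where 2 flies allow no p below 0.5. The count of 4-fold variable unigenes, 8, was 16 with no mean minimum, 4 without the neprilysin family (an alternative added after the data were seen) and 0 to 6 with 1 fly left out. The 21 unigenes lowest in fly 1 and highest in fly 3 became 13 without the neprilysin family and 6 at a mean of at least 5 FPKM, both added after the data were seen and both with fewer unigenes. The share of all FPKM, 0.563%, was 1.38% as a share of reads, since this weights by length, and 0.464% to 0.686% with 1 fly left out. The 24 unigenes detected in every fly were 24 to 36 with 1 fly left out. Precision is limited by 3 flies, and for unigenes below 1 FPKM also by counts of a few reads.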
